A study of Homo sapiens with 9 samples.

Results

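The genes described here are 5 rows of deposited tables that hold 58174 gene rows in all: RN7SL1 and RN7SL2, which encode 7SL RNA, RN7SK, which encodes 7SK RNA, RMRP and RPPH1. Rows were chosen by name, because these RNAs are known as abundant structural RNAs of human cells. Of the 5 rows, only RN7SL2 had reads in every library. RN7SL1, RN7SK and RMRP were listed at 0 in all 9 libraries, and RPPH1 had 1 read in 1 library. The description "abundant" therefore held in these tables for RN7SL2 alone, and the rows below are called by their gene names.

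All 5 RNAs are made by RNA polymerase III and work inside a ribonucleoprotein. 7SL RNA is the scaffold of the signal recognition particle (SRP), which binds ribosomes that make secreted or membrane proteins and brings them to the endoplasmic reticulum. 7SK RNA holds the kinase P-TEFb in an inactive complex through HEXIM proteins and thereby limits transcript elongation by RNA polymerase II. RPPH1 is the catalytic RNA of RNase P, which trims the 5′ ends of tRNA precursors, and RMRP is the related RNA of RNase MRP, which acts in the processing of ribosomal RNA.

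Total RNA was sequenced after removal of ribosomal RNA from ES-2 cells, an established line derived from an ovarian cancer, 72 h after transfection. Cells received a control siRNA (siC), siRNAs directed at IGF2BP1 (siIGF2BP1, labelled siImp1 after another name of the gene) or siRNAs directed at SRF (siSRF), with 3 libraries per group. IGF2BP1 is an RNA-binding protein that stabilizes target mRNAs, and SRF is a transcription factor; the design asks which transcripts change when either is depleted. Nothing in the labels says that the 3 libraries of a group came from separate cultures, so p-values measure the spread between these libraries, which may be technical. Knockdown is transient, and all groups are of 1 cell line.

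The libraries held 6421764 to 9416175 reads on genes. The IGF2BP1 level was 12.8 ± 0.689 FPKM (SD, n = 3) in siC and 4.11 ± 0.0846 FPKM in siIGF2BP1. The SRF level was 14.5 ± 1.28 FPKM in siC, 1.47 ± 0.145 FPKM in siSRF and 6.01 ± 0.714 FPKM in siIGF2BP1, so that SRF lay below siC in every library of both knockdowns. The epithelial keratins KRT8 (8.81 FPKM in siC) and KRT18 (43.4 FPKM) and the mesenchymal filament gene VIM (1055 FPKM in siC) were present. The epithelial markers EPCAM and KRT19 stayed at or below 0.259 FPKM in every library, PAX8 and the endothelial marker PECAM1 at or below 0.387 FPKM, the erythroid marker HBB at or below 0.1 FPKM, and the leukocyte marker PTPRC and the hepatocyte marker ALB were listed at 0.

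Rows of the 7SL family can share reads, since their RNAs are near-identical. RN7SL2, the member that carried the counts, lies on the minus strand of chromosome 14, chr14:49862550-49862849 (GRCh38), and is annotated as a single exon of misc_RNA. RN7SL1 lies on the plus strand of the same chromosome (chr14:49586580-49586878, GRCh38). Over its 299 bases it was identical to RN7SL2 at 98.3% of the aligned positions and differed by 4 substitutions and 1 unpaired base. RN7SL3 (chr14:49853616-49853914, minus strand) was identical at 96.0% with 11 substitutions. The annotated pseudogenes RN7SL4P (chr3:15738515-15738809) and RN7SL5P (chr9:9442060-9442380), both on the plus strand, were identical at 86.6% and 84.5%. Within the first 230 bases of RN7SL2 they differed by only 3 and 4 substitutions, so most of their divergence lay in the 3′ end.

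Of the 226 windows of 75 bases in RN7SL2, 84.1% occurred without a mismatch elsewhere in the genome, and 131 of them occurred in RN7SL1. For RN7SL1 the share was 77.3% of 225 windows, and for RN7SL3 it was 21.8%. Windows of 50 bases gave 86.9%, 84.4% and 38.0% in the same order. How the counting treated reads that match several places is not given in the sources used here, so the division of reads among these rows is uncertain, and the RN7SL2 value is best read as a value of 7SL RNA as the tables assign it.

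7SK RNA had a different kind of overlap. RN7SK (chr6:52995621-52995948, plus strand, GRCh38) was covered over all 328 bases by a second row of the tables, listed as X7SK.5, on the same strand. Both rows were listed at 0. Exact copies were also common for this RNA, at 63.8% of its 254 windows of 75 bases and 77.1% of its 279 windows of 50 bases. Its 5′ hairpin region, with the sequence GATC in capitals, a motif known from the binding of HEXIM1 to 7SK RNA, is shown because it is the part through which 7SK RNA and P-TEFb are linked. GATC occurred 3 times on the RNA strand, at positions 12, 41 and 63 as counted from the first base of the RN7SK row.
RN7SK: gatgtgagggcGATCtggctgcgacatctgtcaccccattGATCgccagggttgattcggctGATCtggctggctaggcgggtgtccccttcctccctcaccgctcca

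RMRP (chr9:35657754-35658017, minus strand, 264 bases) and the RPPH1 ribozyme, listed as RPPH1.1, had no exact copy in the genome at either window size. RMRP and RPPH1 each had a second row in the tables. The row named RPPH1 is a 638-base antisense row (chr14:20343048-20343685, minus strand) that covers all 333 bases of the ribozyme, and 71 of its bases lie under PARP2 on the other strand. RPPH1.1 was listed at 0 in all libraries. A second row of RMRP, RMRP.1, of 268 bases, had 1 read in total. RN7SL2 itself lay wholly under an exon of a long non-coding RNA on the same strand in the later annotation used here. How reads on overlapping genes were counted is not given in the sources used here.

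RN7SL2 held the largest share of reads of any gene. In siC the RN7SL2 share was 4.52%, 5.38% and 4.56% of the reads counted on genes in replicates 1, 2 and 3. The share in siIGF2BP1 was 5.14%, 4.79% and 4.99%, and in siSRF it was 4.83%, 5.00% and 5.03%. Replicate 2 of siC was the highest and replicate 1 of siC the lowest of all libraries, so both knockdown groups lay inside the range of siC. The reads behind these shares were 290265 to 471154 per library and 3336951 in all.

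**Figure D1:**
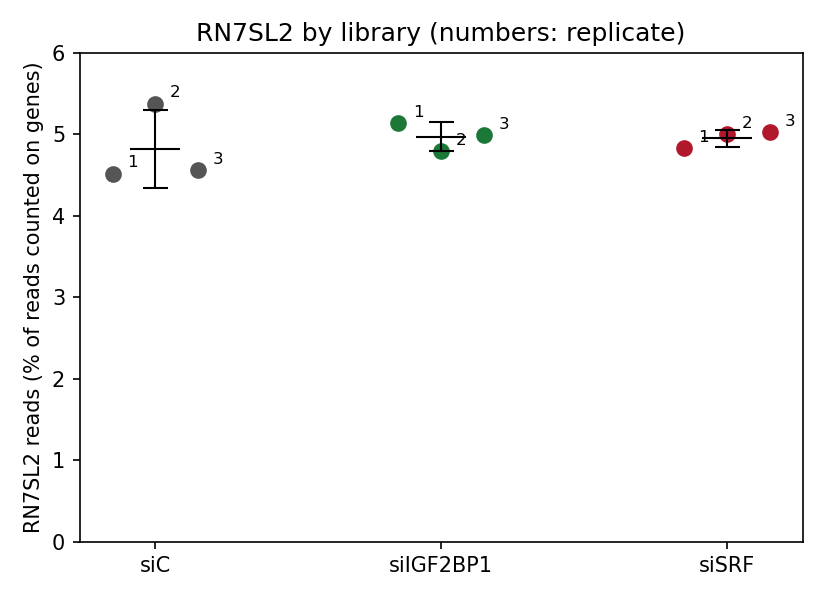
Reads on RN7SL2 as a percentage of the reads counted on genes, for each of the 9 libraries (points, with the replicate number) and as mean ± SD of each group (bars). The 6 knockdown libraries, from 4.79% to 5.14%, sit between the lowest (4.52%) and the highest (5.38%) siC library.

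Next to RN7SL2 in the order of reads came EEF1A1, the translation elongation factor, with a mean of 1.354%, followed by MMP1 (0.547%), VIM (0.481%), EEF2 (0.468%), GAPDH (0.415%), RPL4 (0.323%), RN7SL5P (0.317%), HSP90AB1 (0.315%) and AHNAK (0.303%). RN7SL2 thus had 3.63 times the reads of the next gene. Per length the distance was wider. The mean level of RN7SL2 was 163968 FPKM, against 9853 FPKM for RN7SL5P, 8352 FPKM for RN7SL4P and 4917 FPKM for RN7SL3, which were the next rows on the FPKM scale.

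Counting error was small beside the spread between libraries. From the number of reads alone, RN7SL2 would vary by a CV of 0.175% in siC, 0.162% in siIGF2BP1 and 0.158% in siSRF. The measured CV of the share was 10.0%, 3.48% and 2.12%. Among 1553 genes with at least 1 FPKM and 1000 reads per library on average, the median within-group SD of log2(FPKM + 0.1) was 0.07, and that of RN7SL2 was 0.10. A smaller SD than that of RN7SL2 was found for 81.3% of these genes. Pooled over the 3 groups, RN7SL2 was thus more variable than most of these genes. Its spread was widest in siC, with a CV of the FPKM values of 10.4%, against 4.80% in siIGF2BP1 and 1.80% in siSRF. The pooled value therefore reflects mainly siC, and the rank of RN7SL2 within each group alone was not computed.

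RN7SL1, RN7SK and RMRP had no read in any of the 67771926 reads counted. A count of 0 allows up to 3 reads, which is 3.19e-05% to 4.67e-05% of a library, or between 1.00 and 1.72 FPKM, depending on the library and on the lengths of these rows. These limits cover counting error only and apply to reads assigned to the row, not to the RNA in the cells. In every library RN7SL2 had at least 96755 times as many reads as this limit. RPPH1 was at 0.172 FPKM in replicate 2 of siSRF, from 1 read, and at 0 in the other libraries. Further RNAs that cells commonly hold were also listed at 0, among them the U2 snRNA gene RNU2.1, the U11 snRNA gene RNU11 and all 37 rows of the mitochondrial genome. For this reason 4 of the 5 members are given as listed at 0 or at 1 read, with no fold change.

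Depletion of IGF2BP1 or SRF did not move RN7SL2 beyond the spread of the libraries. On the FPKM scale, which carries the TMM scaling of the authors, RN7SL2 was at 146541, 177764 and 152569 in siC, at 169079, 154083 and 165424 in siIGF2BP1, and at 166600, 172291 and 171365 in siSRF. The means were 158958 ± 16563, 162862 ± 7819.5 and 170085 ± 3054 FPKM (SD, n = 3 each). The groups overlapped in each comparison, and the order of the means, siC, siIGF2BP1, siSRF, has no neighbours that differ beyond their spread.

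The log2 fold change of RN7SL2 against siC was 0.04 in siIGF2BP1 and 0.10 in siSRF, and between siIGF2BP1 and siSRF it was -0.06. From the 6 libraries of each comparison alone, the standard errors of these values were 0.094, 0.0862 and 0.0431. Two-sided exact permutation tests on the FPKM values gave p = 0.8, p = 0.4 and p = 0.2, where 3 libraries against 3 cannot go below 0.1. In the limma-trend fit over all genes, on log2(FPKM + 0.1), the adjusted p was 0.988, 0.954 and 0.9747 in the same order. Its standard errors, 1.02, 0.83 and 0.823, were far wider than those from the RN7SL2 libraries. This fit takes its prior variance from a trend along abundance, not from the gene alone. Limma without a trend, chosen after this was seen, had standard errors of 0.107, 0.099 and 0.0705. It gave 95% confidence intervals of -0.23 to 0.31 for siIGF2BP1 against siC and -0.15 to 0.36 for siSRF against siC, with adjusted p = 0.857 and 0.527. As folds these intervals run from 0.85 to 1.24 and from 0.9 to 1.28. For siIGF2BP1 against siSRF the interval was -0.24 to 0.12, with a limma adjusted p of 0.55.

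**Figure D2:**
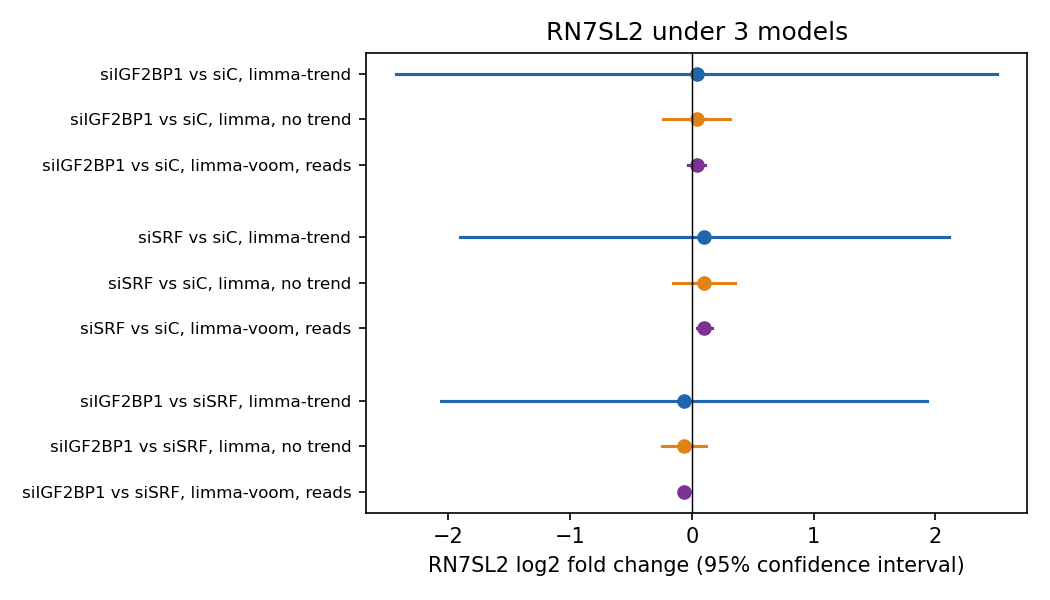
Log2 fold change of RN7SL2 (points) with its 95% confidence interval (lines) in 3 comparisons and under 3 models: limma-trend and limma without a trend on log2(FPKM + 0.1), and limma-voom on recovered reads. Estimates stay between -0.06 and 0.10 while the widths differ, and with limma-voom the intervals for siSRF against siC and siIGF2BP1 against siSRF leave out 0.

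Of the 5 members, 1 passed the filter of a mean of at least 0.1 FPKM and was tested, and none was called at an adjusted p of at most 0.01 by limma-trend in any comparison or at an unadjusted p under 0.05. Of all genes tested, 7.12% were called in siIGF2BP1 against siC (3.57% lower, 3.55% higher), 12.2% in siSRF against siC (5.34% lower, 6.85% higher) and 20% in siIGF2BP1 against siSRF (11.2% lower, 8.82% higher). An unadjusted limma p under 0.05 was found for 29.2%, 34.7% and 41.1% of genes in the same order. Limma-voom on recovered reads, which called 17.1%, 23.4% and 31% of genes, gave RN7SL2 standard errors of 0.0344, 0.0314 and 0.015. Its adjusted p for RN7SL2 was 0.479 in siIGF2BP1 and 0.0108 in siSRF against siC. Between siIGF2BP1 and siSRF, limma-voom called RN7SL2 lower in siIGF2BP1, at a log2 fold change of -0.06 with an adjusted p of 8.6e-04. Its direction depends on the scaling of the libraries: relative to all counted reads, without the TMM factors, the limma-trend estimate was 0.0058, of opposite sign.

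The share of reads on the 5 members together was that of RN7SL2, apart from the 1 read of RPPH1. It was 4.82% ± 0.483 in siC, 4.98% ± 0.173 in siIGF2BP1 and 4.95% ± 0.105 in siSRF (SD, n = 3 each). The differences of the means were 0.155 percentage points for siIGF2BP1 against siC (two-sided exact permutation test, p = 0.7), 0.134 for siSRF against siC (exact p = 0.8) and 0.0211 for siIGF2BP1 against siSRF (exact p = 1). These values depended on single siC libraries. Without replicate 2 of siC the differences against siC were 0.433 (exact p = 0.2) and 0.412 percentage points (exact p = 0.1, the smallest that 3 against 2 allow), and the log2 fold changes of RN7SL2 were 0.12 and 0.19. Without replicate 1 of siC the log2 fold change in siIGF2BP1 was -0.017 and that in siSRF 0.05.

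Replicate 2 of siC also stood highest for the 7SL and 7SK pseudogene rows and the snoRNA and rRNA rows, and lowest for protein-coding rows (89.7%). The rows of biotype snRNA and scaRNA were highest in replicate 2 of siSRF, and the X7SK and Metazoa_SRP rows in replicate 2 of siIGF2BP1. In replicate 2 of siC, the 677 rows named as RN7SL pseudogenes took 0.71% of its reads, and between 0.485% and 0.631% elsewhere. The rows of biotype snoRNA took 0.5% of its reads, 0.436% and 0.375% in the other siC libraries, and between 0.324% and 0.398% in the knockdown libraries. Their part in the RN7SL2 values was not tested. In bulk RNA, less RNA per cell and fewer cells that express it cannot be told apart.

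Reads on other 7SL rows were few in number of rows. Of 849 rows that carry a 7SL name, 306 had a read, and RN7SL2, RN7SL3, RN7SL4P and RN7SL5P together took 99.8% of the reads on them in every library. RN7SL2 alone took 86.0% to 88.9%. All 7SL rows together made up 5.23% to 6.26% of the reads of a library, and siSRF and siC differed in it by a log2 ratio of 0.01 (two-sided exact permutation test, p = 1), siIGF2BP1 and siC by 0.04 (exact p = 0.8). The third largest pseudogene row, RN7SL471P, had 1130 reads over all libraries, which was 0.292% of the reads on pseudogene rows of 7SL.

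Set against RN7SL2, the other rows did not keep exactly the same proportion in each group. RN7SL5P had 7.22, 7.20 and 6.84 reads per 100 RN7SL2 reads in the siC libraries, 6.61, 6.29 and 6.34 in siIGF2BP1, and 5.47, 5.95 and 6.03 in siSRF. The 3 groups did not overlap, but how many other genes separate the groups in this way was not counted. How reads that match several places were divided between RN7SL5P and RN7SL2 is not known. The log2 ratio of RN7SL5P to RN7SL2 was -0.14 in siIGF2BP1 and -0.29 in siSRF against siC (two-sided exact permutation test, p = 0.1 for both, the smallest possible). With each library left out in turn it stayed between -0.17 and -0.13 and between -0.31 and -0.24.

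RN7SL3 had 2.93, 3.11 and 2.80 reads per 100 RN7SL2 reads in siC, 3.31, 3.17 and 3.37 in siIGF2BP1, and 2.48, 2.92 and 2.81 in siSRF. The siIGF2BP1 libraries were above all others, by a log2 ratio of 0.16 against siC and 0.27 against siSRF (exact permutation p = 0.1 for both), while siSRF and siC overlapped (exact p = 0.4). RN7SL4P had 5.54, 5.80 and 4.77 in siC, 5.46, 4.59 and 4.80 in siIGF2BP1, and 4.39, 4.77 and 4.91 in siSRF, and its groups overlapped in each comparison (exact permutation p between 0.3 and 0.5). In all, 9 such ratios were compared, and none can pass 0.05 in this design. For RN7SL3 too, how many other genes separate the groups in this way was not counted. How reads were divided between RN7SL3 and RN7SL2 is not known.

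**Figure D3:**
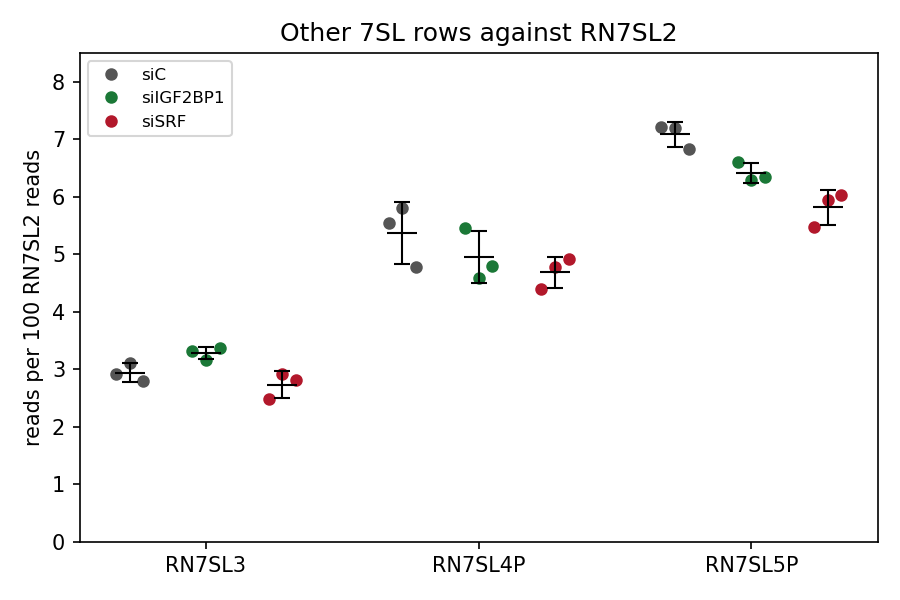
Reads on RN7SL3, RN7SL4P and RN7SL5P per 100 reads on RN7SL2, by library (points) and as mean ± SD of each group of 3 (bars). RN7SL5P is at 7.09 in siC, 6.42 in siIGF2BP1 and 5.82 in siSRF without overlap, RN7SL3 is highest in siIGF2BP1 (3.28), and RN7SL4P overlaps among groups. How many other genes separate the groups in this way was not counted.

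On the scale of the whole transcriptome these rows were not called by limma-trend. RN7SL3 had a log2 fold change of 0.20 in siIGF2BP1 against siC (SE 0.161, limma adjusted p = 0.494) and -0.01 in siSRF (limma adjusted p = 0.989). RN7SL5P was at -0.10 and -0.18 (limma adjusted p = 0.772 and 0.503), and RN7SL4P at -0.08 and -0.09 (limma adjusted p = 0.858 and 0.784). Limma-voom on recovered reads called RN7SL5P lower in siSRF than in siC, at -0.18 (adjusted p = 0.00344). It called RN7SL3 higher in siIGF2BP1 than in siSRF, at 0.20 (adjusted p = 3.4e-04).

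Of the rows named after 7SK RNA, only pseudogene rows and X7SK rows had reads. Whether these reads came from 7SK RNA was not tested. The 293 rows named as RN7SK pseudogenes, of which 92 had a read, took 0.0366%, 0.0451% and 0.039% of the reads in siC, 0.0426%, 0.0401% and 0.0403% in siIGF2BP1, and 0.0304%, 0.0329% and 0.0362% in siSRF. The siSRF libraries were below all others, although the highest of them, 0.0362%, came close to the lowest siC library, 0.0366%. The log2 ratio of the means was -0.28 against siC (two-sided exact permutation test, p = 0.1), and siIGF2BP1 and siC differed by 0.03 (exact p = 0.8). Of these reads, 36.4% were on RN7SKP203, 24.2% on RN7SKP80 and 23.5% on RN7SKP71. The sums over X7SK rows and over rows of biotype snRNA and scaRNA also separated siSRF from siC (exact permutation p = 0.1 for each). The X7SK sum was lower in siSRF, and the snRNA and scaRNA sums were higher. How many single genes separate these groups was not counted.

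RN7SKP203 was at 446 FPKM ± 41 in siC, 431 ± 26.1 in siIGF2BP1 and 376 ± 29.9 in siSRF (SD, n = 3 each), with a log2 fold change of -0.24 in siSRF against siC (limma adjusted p = 0.108). RN7SKP71 was at -0.36 (limma adjusted p = 0.169) and RN7SKP80 at -0.04 (limma adjusted p = 0.739) in the same comparison. None of these rows was called. Of 7 rows listed as X7SK, 4 had reads, 116 in all, and 79.3% of them were on X7SK.1. X7SK.1 was at 6.65 FPKM ± 0.579 in siC, 6.20 ± 0.449 in siIGF2BP1 and 3.82 ± 0.655 in siSRF. Its log2 fold change in siSRF was -0.79 (limma adjusted p = 0.0103), just short of the threshold. For RMRP and RPPH1, pseudogene rows had 0 and 5 reads in all.

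**Figure D4:**
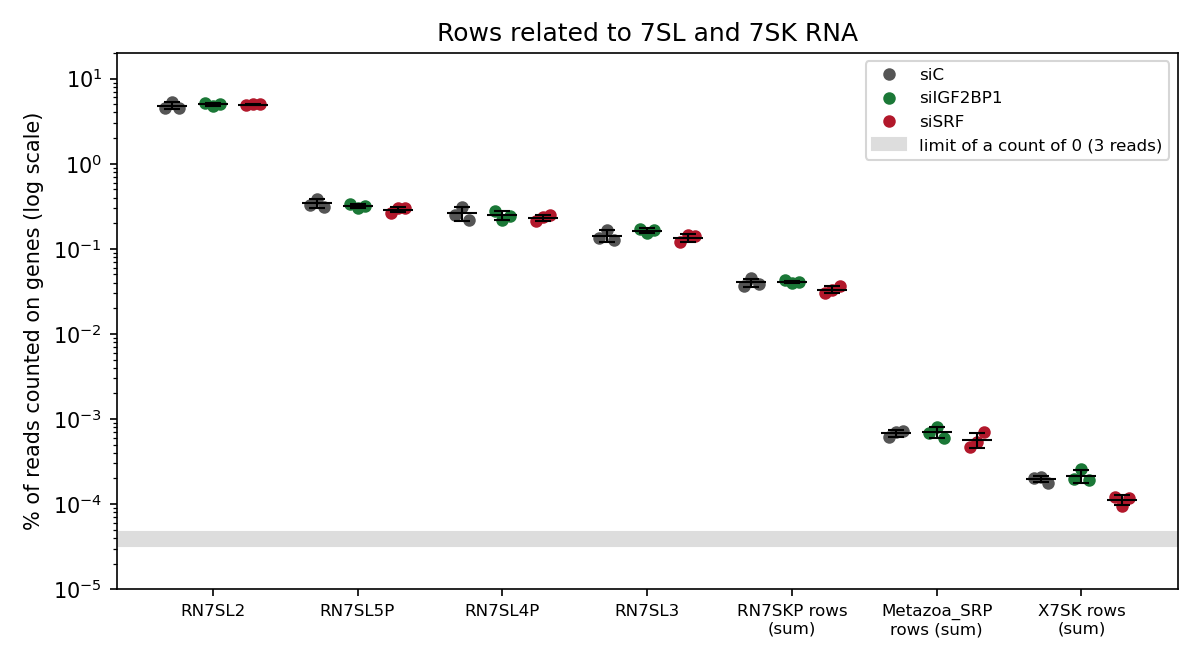
Percentage of reads on RN7SL2, the 3 next 7SL rows, and the sums over RN7SK pseudogene rows, Metazoa_SRP rows and X7SK rows, by library (points) and as mean ± SD of each group of 3 (bars), on a log axis. The grey band is the limit of a count of 0, from 3.19e-05% to 4.67e-05%. RN7SL1, RN7SK and RMRP, with no reads, are not drawn and lie at or below it.

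The proteins that act with these RNAs were compared next, in lists chosen by function. Of the 8 SRP proteins and receptor subunits, none was called by limma-trend in siIGF2BP1 against siC, beside 7.12% of all genes. In that comparison 1 had an unadjusted p under 0.05 and limma-voom called 1, beside 29.2% and 17.1% of all genes. The gene called by limma-voom was SRP9, which binds the Alu domain of 7SL RNA, at a log2 fold change of 0.29 (limma-voom adjusted p = 8.0e-04, limma-trend adjusted p = 0.064). In siSRF against siC, 3 of 8 were called, 1 lower and 2 higher, where 12.2% of all genes were. SRPRA, the subunit of the SRP receptor that docks the particle at the membrane, fell from 27.6 FPKM ± 0.56 to 8.33 FPKM ± 0.965, a log2 fold change of -1.73 (SE 0.0856, limma adjusted p = 2.2e-04). SRP72 rose from 43.1 FPKM ± 3.10 to 60.4 FPKM ± 2.80 (log2 fold change 0.49, limma adjusted p = 0.0036), and SRP9 from 150 FPKM ± 15.6 to 210 FPKM ± 10.3 (0.49, limma adjusted p = 0.00884). SRPRA in siIGF2BP1, at 27.3 FPKM ± 0.65, was at the siC level, and it was higher there than in siSRF by 1.71 (limma adjusted p = 5.1e-05).

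Among the 7 genes of the 7SK particle and P-TEFb, HEXIM1 alone was called in each knockdown (7.12% and 12.2% of all genes were), in opposite directions. HEXIM1, which binds 7SK RNA and inhibits P-TEFb, fell from 9.43 FPKM ± 1.06 in siC to 5.71 FPKM ± 0.426 in siIGF2BP1 (log2 fold change -0.71, SE 0.103, limma adjusted p = 0.00673). In siSRF it rose to 14.5 FPKM ± 0.351 (0.62, SE 0.0862, limma adjusted p = 0.00412). The difference between the knockdowns was -1.33 (limma adjusted p = 5.9e-05). No other gene of this list was called against siC by limma-trend. An unadjusted p under 0.05 was found for 4 genes in siIGF2BP1 and 5 in siSRF, HEXIM1 included, beside 29.2% and 34.7% of all genes. Limma-voom called 2 and 4, beside 17.1% and 23.4% of all genes. The kinase CDK9 was at -0.42 in siIGF2BP1 (limma adjusted p = 0.028) and at -0.18 in siSRF (limma adjusted p = 0.082), and the 7SK-binding protein LARP7 at 0.31 and 0.41 (limma adjusted p = 0.135 and 0.043).

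Of the proteins of RNase P and RNase MRP, 1 of the 10 tested was called in siIGF2BP1, where 7.12% of all genes were. An unadjusted p under 0.05 was found for 5 of them, all lower, beside 29.2% of all genes in either direction. Limma-voom called 3, all lower, beside 17.1% of all genes. RPP38 fell from 7.60 FPKM ± 0.25 to 3.68 FPKM ± 0.396 (log2 fold change -1.03, SE 0.0979, limma adjusted p = 0.0016). RPP38 was at 0.01 in siSRF (limma adjusted p = 0.965). In siSRF, 3 of 11 were called, all higher, beside 6.85% of all genes called higher. No gene of this list was called against siC in both knockdowns. POP1, the largest protein of both enzymes, rose from 11.6 FPKM ± 0.814 to 20.8 FPKM ± 0.763 (0.84, SE 0.066, limma adjusted p = 6.7e-04). RPP40 rose by 1.03 (limma adjusted p = 0.0032) and RPP30 by 0.56 (limma adjusted p = 0.00225). The median log2 fold change of the list was -0.18 in siIGF2BP1 and 0.44 in siSRF against siC, where the median of all genes tested was 0.02 and 0.0074. Between the knockdowns, 4 of 11 were called, all lower in siIGF2BP1, beside 11.2% of all genes called lower there.

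RNA polymerase III and its factors were the longest list, with 31 genes tested. In siSRF, 11 were called, all higher, beside 6.85% of all genes called higher, with a list median of 0.38. In siIGF2BP1, 1 of 31 was called, POLR3G, a smaller share than the 7.12% of all genes, with a list median of -0.14. At an unadjusted p under 0.05, 12 were lower and 2 higher in siIGF2BP1, beside 29.2% of all genes in either direction. In siSRF 4 were lower and 21 higher, beside 34.7%. Limma-voom called 2 lower and 1 higher in siIGF2BP1, and 1 lower and 16 higher in siSRF, beside 17.1% and 23.4% of all genes. POLR3G, a polymerase subunit known from stem and tumour cells, went from 14.8 FPKM ± 0.991 in siC to 8.54 FPKM ± 0.118 in siIGF2BP1 (log2 fold change -0.78, SE 0.0651, limma adjusted p = 0.00104) and to 27.5 FPKM ± 0.839 in siSRF (0.89, SE 0.0615, limma adjusted p = 4.9e-04). The largest subunit, POLR3A, rose by 0.76 in siSRF (limma adjusted p = 4.6e-04) and was at -0.26 in siIGF2BP1 (limma adjusted p = 0.0228). SNAPC1, a subunit of the complex that recruits the polymerase to the 7SK, RMRP and RPPH1 genes, rose by 1.39 in siSRF (limma adjusted p = 6.8e-04). POLR3F rose by 1.07, CRCP by 0.50 and POLR3E by 0.47 (limma adjusted p between 0.0012 and 0.00363). Between the knockdowns, 15 of 31 were called, all lower in siIGF2BP1, where 11.2% of all genes were called lower. The RN7SL2 level did not differ between groups beyond its spread, and the other members, listed at 0 or 1 read, gave no value to set beside these mRNAs.

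**Figure D5:**
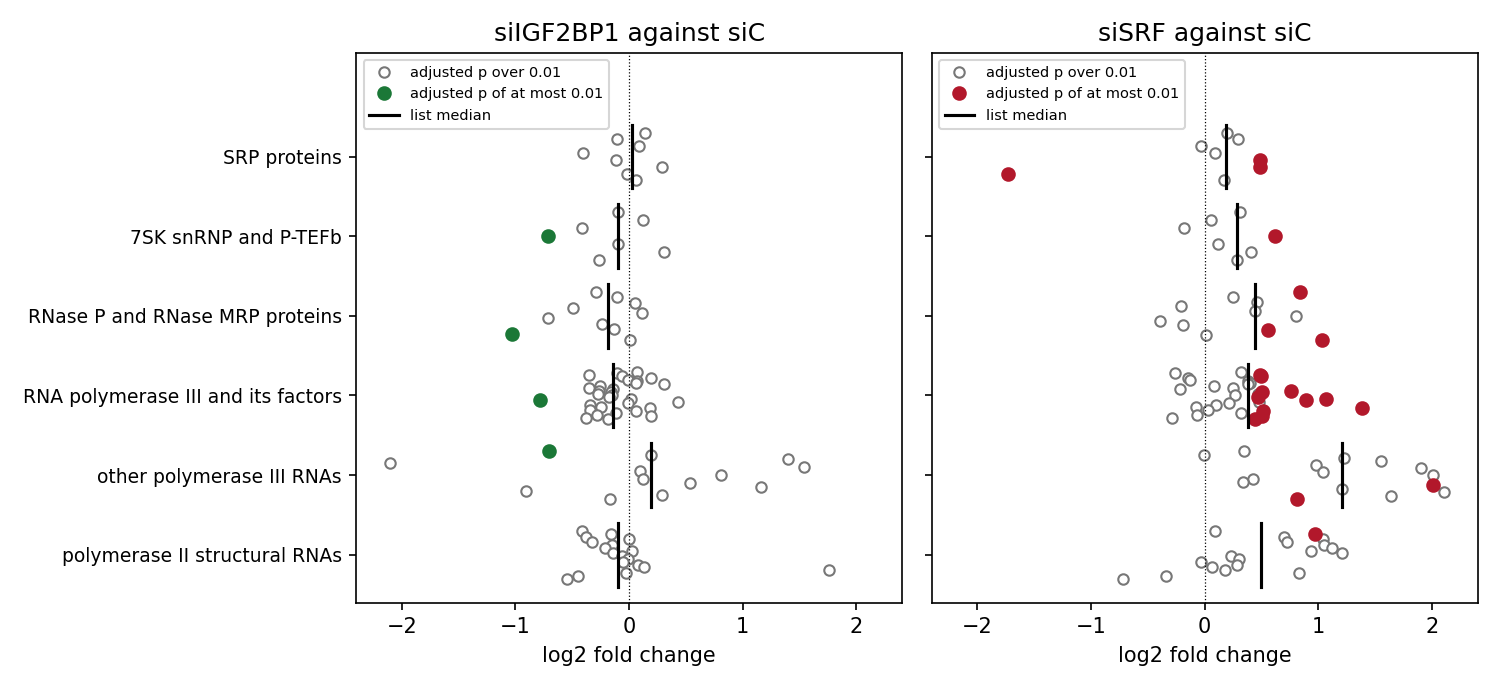
Log2 fold change by limma-trend for each tested gene of 6 lists in siIGF2BP1 (left) and siSRF (right) against siC: open points have an adjusted p over 0.01, filled points one of at most 0.01, and black bars are list medians. In siSRF, 11 of 31 genes of RNA polymerase III and its factors are filled and lie right of 0, and SRPRA lies alone at -1.73.

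Other RNAs made by polymerase III were compared for reference, 17 rows of which 2 were listed at 0. BCYRN1, a neuronal and tumour RNA whose 5′ part resembles 7SL RNA, was lower in siIGF2BP1, at 28.5 FPKM ± 1.41 against 46.6 FPKM ± 5.49 in siC (log2 fold change -0.70, SE 0.0922, limma adjusted p = 0.00477). In siSRF it was at 59.1 FPKM ± 1.81 (0.35, limma adjusted p = 0.0331). BCYRN1 was the only 1 of 13 tested rows called in siIGF2BP1, and 2 of 15 were called in siSRF. Both counts are near the shares of all genes called, 7.12% and 12.2%, and so by themselves say nothing about the list. The list median was 0.20 in siIGF2BP1 and 1.21 in siSRF, where the median of all genes tested was 0.02 and 0.0074. By limma-voom the siSRF median was 0.81. In siSRF 14 of 15 rows lay above 0, and 6 had an unadjusted limma p under 0.05, all higher, beside 34.7% of all genes in either direction. RNY4 and RNA5S9 had no read in siC or siIGF2BP1 and passed the filter only through siSRF. Their place above 0 in siSRF was therefore fixed in advance. The limma-trend median of 1.21 is the value of RNY4 itself, so it does not measure the change of the list. The rows called in siSRF were both higher: the Y RNA gene RNY3, from 5.19 FPKM ± 1.38 to 21.6 FPKM ± 7.30 (2.01, limma adjusted p = 0.00561), and the vault RNA gene VTRNA1.3, from 89.9 FPKM ± 17.2 to 156 FPKM ± 9.68 (0.82, limma adjusted p = 0.00901). These RNAs are shorter than 7SL RNA. The RNY3 row, of 102 bases, lay between 4.33 and 6.78 FPKM in siC. At that length these values rest on few reads, close to the limit of a count of 0, so the size of the RNY3 rise is poorly measured.

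Structural RNAs made by polymerase II formed the last list, with 25 rows of which 7 were listed at 0. None of the 18 tested was called in siIGF2BP1 by limma-trend, beside 7.12% of all genes. There 2 had an unadjusted p under 0.05 and limma-voom called 1, beside 29.2% and 17.1% of all genes. In siSRF, 1 of 18 was called by limma-trend, below the 12.2% of all genes. An unadjusted p under 0.05 was found for 10 in siSRF, beside 34.7% of all genes. Limma-voom called 6 higher and 1 lower in siSRF, beside 23.4% of all genes in either direction. The row called by limma-trend, RNU12, rose from 4.45 FPKM ± 0.298 to 8.96 FPKM ± 1.98 (0.97, limma adjusted p = 0.00946). It bears the name of the U12 snRNA of the minor spliceosome but is listed as a lincRNA of 664 bases. Whether its reads came from the snRNA was not tested. The list median was -0.10 in siIGF2BP1 and 0.50 in siSRF, where the median of all genes tested was 0.02 and 0.0074. Rows of biotype snRNA together took 0.0223%, 0.023% and 0.0223% of reads in siSRF, above the 0.0166% to 0.0211% of siC and the 0.0153% to 0.0177% of siIGF2BP1 (two-sided exact permutation test, p = 0.1 for both). In contrast, the share of RN7SL2 did not separate the groups.

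The genes whose levels were most like RN7SL2 over the 9 libraries, among 14167 with a mean of at least 1 FPKM, were RFTN1 (Pearson r = 0.912), MIR619 (r = 0.897) and EBAG9 (r = 0.894) on the scale of log2(FPKM + 0.1). These are descriptions over libraries that share scaling and 3 groups. MIR619 rested on 0.778 reads per library and EBAG9 on 79.4. For the other members no such comparison was possible, since they had no or 1 read.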

How the data were processed

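Total RNA-seq of ES-2 cells was deposited as 2 tables, each with siC and 1 knockdown. The authors clipped reads with cutadapt (1.14), aligned them to GRCh38 with HISAT2 (2.1.0), handled them with SAMtools (1.5), counted them on Ensembl genes with featureCounts (1.5.3) and compared groups with edgeR (3.18.1). The deposited unit is FPKM, scaled by TMM factors. Log2 fold changes, p-values and FDR of the authors were not used. Strand, overlap and multiple-match settings are not given in the sources used here. The siC values were identical in both tables for 58174 of 58174 rows.

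FPKM times length was a whole number of reads (tolerance 0.01) for 100% of values. Libraries held 6421764 to 9416175 reads, with a median of 7377934. The test was limma-trend (limma 3.58.1 in R 4.3.3) on log2(FPKM + 0.1), a scale that understates changes of weakly expressed genes. It used genes averaging 0.1 FPKM or more over the 6 libraries compared. Benjamini-Hochberg adjustment ran over every gene tested, and genes were called at 0.01 or less. Single values were compared by exact permutation tests. The fits were tested on simulated data. Alternatives were other pseudocounts, filters and scalings, limma-voom on recovered reads, robust eBayes, a replicate block, all 9 libraries and leaving out each library. Limma without a trend and the ratios to RN7SL2 with each library left out were added after seeing the data.

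Members and gene lists were chosen with earlier results of these data known. Of each list, at most 6 called genes with the smallest p were named. CDK9, LARP7, the genes listed at 0 and single pseudogene rows were named after their values were seen. Symbols were matched as written, with a point for a hyphen, and SRPR is an older symbol of SRPRA. Sequences and coordinates are from GRCh38 with GENCODE annotation, a later release than the authors' Ensembl annotation. Sequences of the 7SL rows and 1 marker gene are not reported here.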

Additional observations from a re-analysis of the deposited data

How the results depend on the processing

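RN7SL2 was not called in any comparison under limma-trend with other pseudocounts, filters or scalings. Nor was it called with robust eBayes, without a trend, with all 9 libraries or with any library left out. Most of these fits could hardly have called it, since their standard errors were far wider than those from its own libraries. In siIGF2BP1 against siC the main limma-trend interval ran from -2.43 to 2.51, and the standard error reached 4.11 with all genes above 0 kept. Narrow errors in that comparison came only from robust eBayes (0.0796), the fit without a trend (0.107) and the filter of 1 FPKM (0.143). Limma-voom called RN7SL2 between siIGF2BP1 and siSRF (-0.062), so that members called there were 1 and not 0. Without TMM factors this log2 fold change was 0.0058, and relative to reads outside the members 0.0061. Leaving out each library moved it between -0.09 and -0.02, that of siIGF2BP1 against siC between -0.017 and 0.12, and that of siSRF against siC between 0.05 and 0.19. Differences in the share of reads moved between 0.0048 and 0.433, between -0.016 and 0.412 and, for siIGF2BP1 against siSRF, between -0.061 and 0.112 percentage points, and the last was -0.217 on TMM-scaled values and -3.5e-06 with RN7SL1 and RN7SL2 left out of the sum. Where the cause is not the construction of an alternative, the cause was not tested. Genes called in siIGF2BP1 against siC, siSRF against siC and siIGF2BP1 against siSRF were 1588, 2665 and 4460. They were 3596, 5205 and 7132 at an adjusted p of 0.05, 3805, 5123 and 6912 with limma-voom, and 534, 944 and 3146 without a trend. All 9 libraries in 1 fit gave 2481 for the first. With each library left out they ranged over 436 to 738, 946 to 1796 and 2885 to 3358. With the replicate block 91, 501 and 2075 genes were called. The block changed no call of a member, but its standard errors for RN7SL2, 1.21, 1.01 and 2.05, left little room for one. Same-numbered libraries did not deviate together (correlations from -0.0438 to 0.0186), so the numbers were not taken as pairs. The ratio of RN7SL1 to RN7SL2 could not be given, since RN7SL1 was listed at 0. With all mitochondrial rows at 0, a share outside the mitochondrial genome was the same value. Depth limits the rows listed at 0 to statements about 3 reads or fewer.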
